A study of Mus musculus with 6 samples.

Results

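The 10 genes studied here, which define and equip GABAergic interneurons, were followed in cultured mouse cortical neurons stimulated with NMDA: Gad1, Gad2, Slc32a1, Dlx1, Dlx2, Dlx5, Dlx6, Lhx6, Sst and Npy. They were taken by symbol from the table of raw counts, in which each of the 10 symbols matched 1 of 38293 rows, and all 10 passed the filter on low counts that left 14642 genes. RNA was sequenced from 3 libraries of wild-type (WT) cortical neurons given a 10-minute pulse of 50 µM NMDA and then left for 50 minutes in medium without the drug, and from 3 libraries of untreated WT neurons (control). All cultures were made from dissociated cortex of Swiss-Webster embryos at embryonic day 16 and were used after 13 days in vitro, so every library mixes all cell types of the dish. Etoposide, which poisons topoisomerase II, appears in the protocol text for growth, but no library used here carries it as a label. The extraction protocol speaks of 2 biological replicates whereas each group has 3 libraries, so the p-values here reflect the spread between libraries, which may be technical in part.

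GABAergic interneurons are the inhibitory minority of cortical neurons. They arise in the ganglionic eminences of the ventral forebrain, where Dlx homeodomain factors switch on the GABA programme, and migrate into the cortex. Cells of the medial ganglionic eminence (MGE) carry Lhx6 and become somatostatin or parvalbumin cells, whereas the caudal ganglionic eminence (CGE) yields the Vip, Reln and Lamp5 types. Somatostatin and neuropeptide Y are stored in dense-core vesicles and released during strong firing, and both genes are known to respond to neuronal activity over hours.

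Counted reads per library ran from 15417234 to 18606264 in the NMDA group and from 17860691 to 19183999 in the control group. The stimulation was seen in immediate early genes: Fos averaged 116 ± 24.5 CPM in NMDA libraries and 3.30 ± 0.573 CPM in control libraries (CPM, counts per library size after TMM scaling; mean ± SD, n = 3 each), and Npas4 averaged 64.2 ± 24.4 CPM in NMDA libraries and 5.31 ± 1.19 CPM in control libraries. Libraries with the same replicate number deviated together from their group means, so values are also given within pairs. The cultures expressed the excitatory markers Camk2a, Neurod6 and Slc17a7 at 91.0, 82.7 and 31.8 CPM per kilobase of exon in control libraries. Microglial markers were close to absent, summing to 4.09 to 5.76 CPM in NMDA libraries and 4.27 to 5.84 CPM in control libraries over 10 genes, 8 of which did not pass the filter on low counts.

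The fitted changes of the interneuron genes between NMDA and control neurons were small. The highest were those of the peptide genes Npy and Sst, though the order of Sst and Gad1 turned in some settings. No member passed an adjusted p of 0.05 in edgeR's quasi-likelihood test (0 of 10, where 0.430% of all genes tested were called), and 2 members had an unadjusted p under 0.05, as did 13.7% of all genes. DESeq2 and limma-voom also called 0, where they called 2.09% and 0.410% of all genes. With the replicate number as a block, edgeR called 1 member, Sst, against 14.0% of all genes, and 3 members had an unadjusted p under 0.05, against 28.7% of all genes. DESeq2 with the block called 0 members and 6.58% of all genes. Fitted log2 fold changes ran from -0.04 to 0.44 with a median of 0.06, beside a median of -0.005 over all genes tested. The fitted change was above 0 for 9 of 10 members, against 7182 of all 14642 genes tested. The sign of Gad2, Dlx1, Dlx2, Dlx5 and Lhx6, however, turned under at least 1 alternative processing. In bulk libraries a change in the number of interneurons and a change in RNA per interneuron cannot be told apart.

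**Figure D1:**
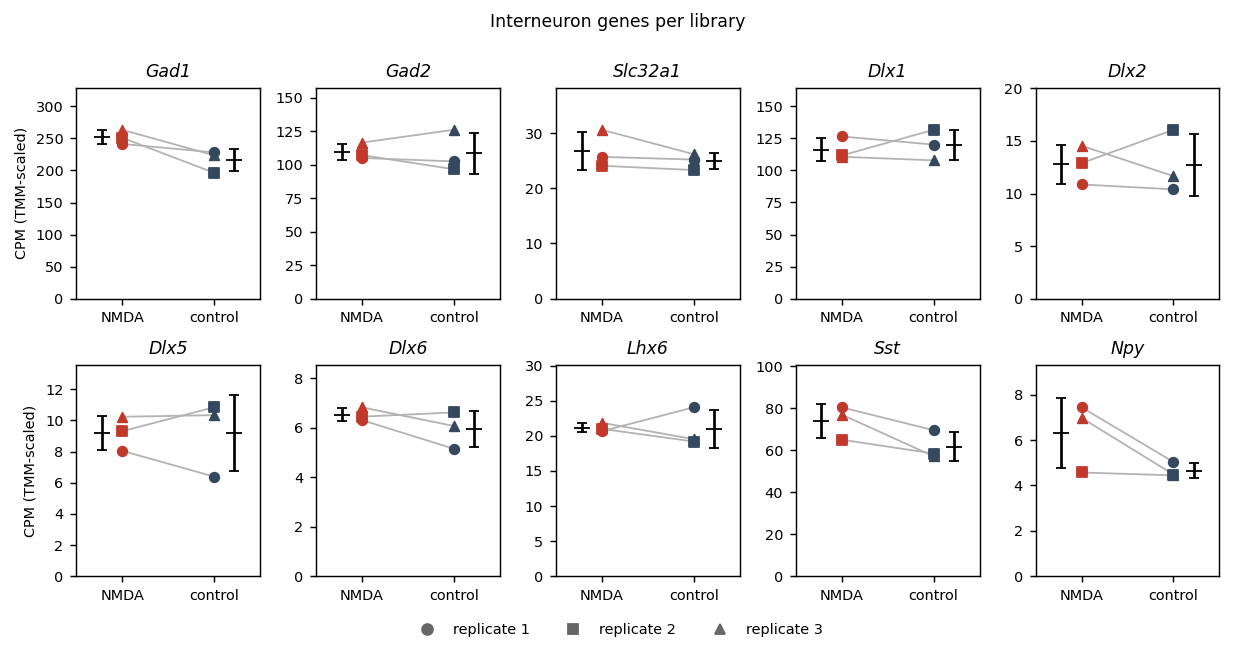
Level of each of the 10 genes in each library, in TMM-scaled CPM, with NMDA libraries on the left and control libraries on the right of each panel; marker shapes are replicates 1, 2 and 3, grey lines join libraries of the same number, and the bars beside the points show mean ± SD over 3 libraries. Gad1 alone has its 3 NMDA libraries (241 to 264 CPM) above its 3 control libraries (196 to 228 CPM).

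The summed level of the 10 genes was 632, 613 and 659 CPM in NMDA replicates 1, 2 and 3, and 597, 564 and 593 CPM in control replicates 1, 2 and 3. All 3 NMDA sums lay above the 3 control sums. The within-pair log2 differences of the sum were 0.08, 0.12 and 0.15, which is a description of a total to which Gad1 contributes most.

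Gad1 encodes the GAD67 form of glutamate decarboxylase, which makes the bulk of neuronal GABA; it lies on chromosome 2 from 70553072 to 70602014 on the plus strand (GRCm38, GENCODE M21; identifier ENSMUSG00000070880). Its level was 241, 251 and 264 CPM in NMDA replicates 1, 2 and 3, and 228, 196 and 224 CPM in control replicates 1, 2 and 3. Every NMDA library exceeded every control library, which held in this direction for 8.18% of all genes tested; the reverse order held for 0 of 10 members and 11.1% of all genes. The log2 fold change was 0.22 ± 0.09 (SE; edgeR adjusted p = 0.327), and with the replicate block it was 0.22 ± 0.08 (edgeR adjusted p = 0.0582). Gad1 passed the threshold only in 2 of the settings tried. These were the block with GC and length offsets (edgeR adjusted p = 0.0241), which called 13.6% of all genes, and the block without the pair numbered 1 (edgeR adjusted p = 0.00351), which called 18.4%.

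Gad2 encodes GAD65, the form tied to synaptic vesicles, on chromosome 2 from 22622205 to 22693874 on the plus strand (ENSMUSG00000026787). Its level was 105, 107 and 117 CPM in NMDA replicates 1, 2 and 3, and 103, 96.7 and 126 CPM in control replicates 1, 2 and 3. The groups overlapped fully, with the highest and the lowest library both in the control group, and the log2 fold change was 0.02 ± 0.11 (edgeR adjusted p = 0.966). The ratio of Gad2 to Gad1 counts was 0.436, 0.427 and 0.443 in NMDA replicates 1, 2 and 3, and 0.450, 0.492 and 0.565 in control replicates 1, 2 and 3. Thus the 3 NMDA ratios lay below the 3 control ratios, a difference noticed after the values were seen and not tested.

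Slc32a1 encodes the vesicular transporter that loads GABA and glycine into synaptic vesicles, on chromosome 2 from 158610767 to 158615748 on the plus strand (ENSMUSG00000037771). It stood at 25.7, 24.1 and 30.6 CPM in NMDA replicates 1, 2 and 3, and at 25.2, 23.3 and 26.2 CPM in control replicates 1, 2 and 3. The groups overlapped, and although each NMDA library was above the control library of its number, the log2 fold change of 0.11 ± 0.12 did not pass (edgeR adjusted p = 0.727). An annotated antisense gene, Gm14205, shares 697 exonic bases with Slc32a1 and had 0 counts in every library.

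The 4 Dlx members sit as convergent pairs, Dlx1 with Dlx2 on chromosome 2 and Dlx5 with Dlx6 on chromosome 6, and encode homeodomain factors that act in series in ventral forebrain progenitors and persist in many mature interneurons. None of the 4 differed between groups beyond the spread between libraries, and none had groups that did not overlap. Dlx1 (71528113 to 71533981, plus strand, ENSMUSG00000041911) was the strongest of them at 126, 112 and 111 CPM in NMDA replicates 1, 2 and 3, and 120, 132 and 108 CPM in control replicates 1, 2 and 3. Its log2 fold change of -0.04 ± 0.10 (edgeR adjusted p = 0.874) was the lowest of the 10 members. Its neighbour Dlx2 (71543408 to 71546754, minus strand, ENSMUSG00000023391) reached 10.9, 12.9 and 14.5 CPM in NMDA replicates 1, 2 and 3, and 10.4, 16.1 and 11.7 CPM in control replicates 1, 2 and 3. Its highest and its lowest library were both controls, and the log2 fold change was 0.01 ± 0.18 (edgeR adjusted p = 0.987).

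Dlx5 (chromosome 6, 6877805 to 6882085, minus strand, ENSMUSG00000029755) had 8.05, 9.31 and 10.2 CPM in NMDA replicates 1, 2 and 3, and 6.39, 10.8 and 10.3 CPM in control replicates 1, 2 and 3. Its group means of 9.20 ± 1.10 CPM in NMDA libraries and 9.19 ± 2.44 CPM in control libraries were closer than those of any other member (edgeR adjusted p = 0.995). Dlx6 (chromosome 6, 6863334 to 6868568, plus strand, ENSMUSG00000029754) had 6.30, 6.45 and 6.82 CPM in NMDA replicates 1, 2 and 3, and 5.15, 6.62 and 6.07 CPM in control replicates 1, 2 and 3, with overlapping groups and a log2 fold change of 0.14 ± 0.16 (edgeR adjusted p = 0.754). Replicate 1 held the lowest level of Dlx2, Dlx5 and Dlx6 in both groups, which is a difference between pairs and not between conditions. Dlx6os1, the long non-coding RNA known as Evf2 that is transcribed antisense across Dlx6, had more counts than Dlx6 in every library, not scaled for length. Its counts were 16.6 ± 0.741 times those of Dlx6 in NMDA libraries and 18.6 ± 1.81 times in control libraries (mean ± SD, n = 3 each). Dlx6 and Dlx6os1 share no exonic base in GENCODE M21, whereas Dlx1 and its antisense gene Dlx1as share 335; the library kit is stranded but the strand setting of the counting is not given in the sources used here, so reads of such partners may not be fully separated.

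Lhx6 encodes the LIM homeodomain factor that marks MGE-derived interneurons and is needed for their somatostatin and parvalbumin fates (chromosome 2, 36081953 to 36105408, minus strand, ENSMUSG00000026890). It was at 20.7, 20.99 and 21.8 CPM in NMDA replicates 1, 2 and 3, and at 24.1, 19.2 and 19.5 CPM in control replicates 1, 2 and 3. The NMDA libraries lay inside the range of the controls, with a log2 fold change of 0.02 ± 0.12 (edgeR adjusted p = 0.966).

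In the edgeR fits on all libraries, with and without the block alone, the peptide genes had the largest fitted changes of the 10. Sst and Gad1 differed by less than their SE, and their order turned in some of the settings tried. Sst encodes the precursor of somatostatin, an inhibitory peptide of dendrite-targeting interneurons, and lies on chromosome 16 from 23889573 to 23890958 on the minus strand (ENSMUSG00000004366). Its level was 80.4, 65.0 and 77.0 CPM in NMDA replicates 1, 2 and 3, and 69.5, 58.4 and 57.1 CPM in control replicates 1, 2 and 3. The groups overlapped because control replicate 1 was above NMDA replicate 2, yet each NMDA library exceeded the control of its own number, by log2 differences of 0.21, 0.15 and 0.43. Without the block the log2 fold change was 0.26 ± 0.11 (edgeR adjusted p = 0.336). With the replicate block Sst rose by 0.27 ± 0.07 on the log2 scale (edgeR adjusted p = 0.0224), whereas the DESeq2 fit with the block did not call it (adjusted p = 0.0866). The blocked edgeR call held without the pair numbered 1 (adjusted p = 0.00626). It was lost without the pair numbered 2 (adjusted p = 0.0506; 6.90% of all genes called) or 3 (adjusted p = 0.206; 9.93% of all genes called).

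Npy encodes neuropeptide Y, found in a large share of somatostatin cells and in neurogliaform cells (chromosome 6, 49822710 to 49829507, plus strand, ENSMUSG00000029819). It was the member with the lowest mean CPM in both groups, with 111, 83 and 131 counts in NMDA replicates 1, 2 and 3, and 93, 80 and 85 counts in control replicates 1, 2 and 3. On the CPM scale these were 7.44, 4.57 and 6.98 in NMDA libraries and 5.04, 4.45 and 4.48 in control libraries. NMDA replicates 1 and 3 stood above all controls and NMDA replicate 2 stood among them. The log2 fold change of 0.44 ± 0.21 was the highest of the 10 and did not pass (edgeR adjusted p = 0.395; 0.0808 with the replicate block). Npy passed in 1 of the settings tried, the block without the pair numbered 2 (log2 0.60 ± 0.20, edgeR adjusted p = 0.0419). Higher levels in all 3 pairs were found for 4 of 10 members (Gad1, Slc32a1, Sst and Npy), against 22.5% of all genes tested, and lower levels in all 3 pairs for 0 of 10, against 25.7%.

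**Figure D2:**
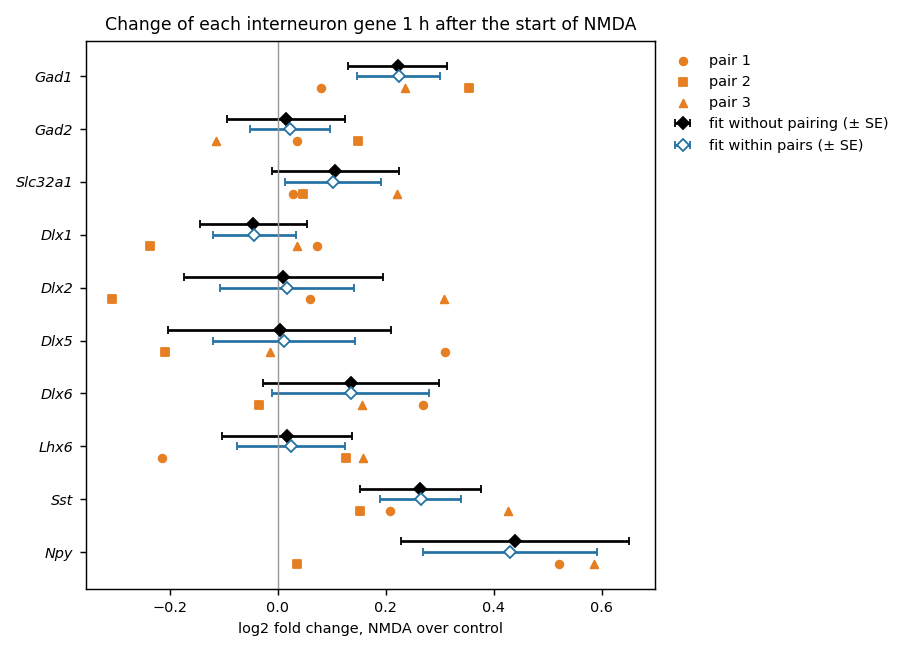
Log2 fold change of each of the 10 genes, NMDA over control, from the edgeR fits with and without the replicate number as a block (points, bars ± SE), with the within-pair log2 differences of replicates 1, 2 and 3. The largest values are those of Npy (0.44 ± 0.21 without the block) and Sst (0.26 ± 0.11), and only Sst passed the threshold with the block.

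The promoters of Sst, Npy and Gad1 are shown because these are the members with the lowest p-values in the blocked fit, and because the Sst promoter is the textbook case of a cAMP response element (CRE), the site bound by the activity-regulated factor CREB. The windows run from 250 bases before to 50 bases after the annotated RefSeq start in GRCm38.p6, read 5′ to 3′ on the gene's strand; the reference is not the Swiss-Webster strain of the cultures. Capitals mark the CRE (TGACGTCA) or its 5-base core (TGACG), on either strand.
Sst, chr16:23890795-23891094, minus strand: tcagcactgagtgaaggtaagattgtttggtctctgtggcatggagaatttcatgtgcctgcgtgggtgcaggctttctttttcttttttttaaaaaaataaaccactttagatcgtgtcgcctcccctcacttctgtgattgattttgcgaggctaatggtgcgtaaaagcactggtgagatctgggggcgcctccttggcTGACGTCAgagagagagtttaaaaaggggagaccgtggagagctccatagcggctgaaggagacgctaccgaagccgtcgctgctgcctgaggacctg
Npy, chr6:49822460-49822759, plus strand: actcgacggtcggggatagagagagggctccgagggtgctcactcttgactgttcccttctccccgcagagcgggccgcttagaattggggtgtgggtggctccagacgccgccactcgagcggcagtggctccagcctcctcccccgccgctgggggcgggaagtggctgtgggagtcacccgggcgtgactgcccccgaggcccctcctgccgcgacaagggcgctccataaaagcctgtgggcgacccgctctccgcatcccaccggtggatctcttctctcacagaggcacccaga
Gad1, chr2:70561879-70562178, plus strand: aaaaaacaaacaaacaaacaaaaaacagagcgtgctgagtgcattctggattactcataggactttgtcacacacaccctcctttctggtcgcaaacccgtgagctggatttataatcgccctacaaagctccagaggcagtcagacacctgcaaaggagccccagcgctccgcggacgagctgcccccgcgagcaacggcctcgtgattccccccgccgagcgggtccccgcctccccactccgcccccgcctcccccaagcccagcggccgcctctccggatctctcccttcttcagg
The full CRE was present in the Sst window alone among the 8 members with a promoter sequence, first base at -48 from the start, and in 1.79% of 32851 promoter windows overall. The core TGACG, which the palindrome contains on both strands, was found besides only in Gad2 (at -33) and Dlx2 (at -58), against 20.8% of all windows. The AP-1 motif TGANTCA, the site of Fos-Jun dimers, occurred in a window of Lhx6 and in 7.81% of all windows. The letters TCGTG, a form of E-box bound by NPAS4 dimers, occurred in windows of Sst, Gad1, Gad2 and Lhx6 and in 5269 of the 32851 windows, and the homeodomain core TAATTA occurred in none of the members and in 5.29% of all windows. These are letter matches and not measured binding. Lhx6 has several windows, so the 8 members have 10 windows, and Lhx6 had more occasions for a match. The shares over all promoters count windows and not genes.

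In untreated cultures the 10 genes spanned a wide range of levels per exon length. Sst was the highest at 85.6 ± 9.43 CPM per kilobase, above 97.5% of the 14489 tested genes with a length. It was followed by Gad1 at 28.3 ± 2.25, Dlx1 at 22.2 ± 2.21 and Gad2 at 18.5 ± 2.66 CPM per kilobase. Slc32a1 at 8.90 ± 0.522 and Npy at 8.23 ± 0.585 CPM per kilobase came next, then Dlx2 at 4.45 ± 1.04, Lhx6 at 4.35 ± 0.566, Dlx5 at 4.06 ± 1.08 and Dlx6 at 2.50 ± 0.313 CPM per kilobase (SD, n = 3). The control ranges of neighbours in this order were separate between Sst and Gad1, Gad1 and Dlx1, Gad2 and Slc32a1, Npy and Dlx2, and Dlx5 and Dlx6; those of Dlx1 and Gad2, Slc32a1 and Npy, Dlx2 and Lhx6, and Lhx6 and Dlx5 overlapped. With the longest transcript as the length, Gad1 came to 60.0 and Dlx1 to 29.15 CPM per kilobase, and Dlx5 and Lhx6 moved ahead of Dlx2. In NMDA libraries the mean level of Sst was 103, that of Gad1 33.0 and that of Npy 11.2 CPM per kilobase.

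**Figure D3:**
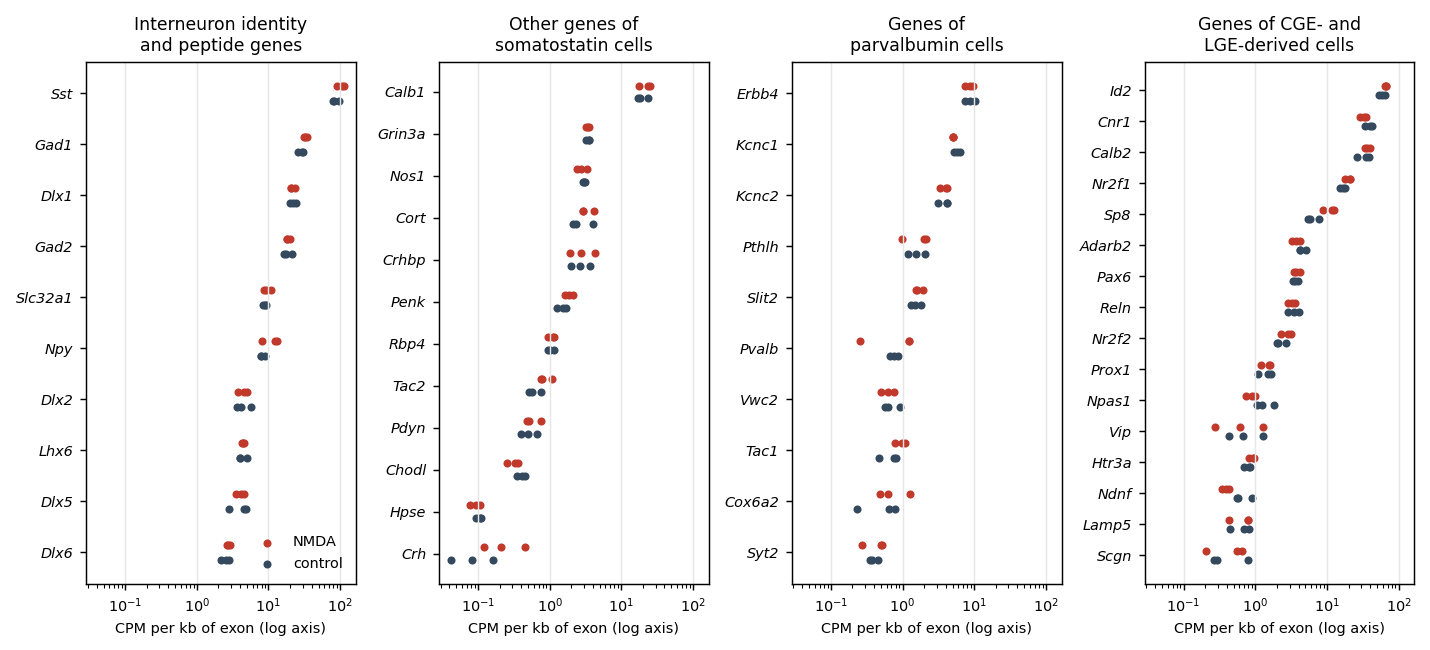
Level in CPM per kilobase of exon, on a log axis, of the 10 genes and of genes of somatostatin, parvalbumin and CGE- or LGE-derived cells (LGE, lateral ganglionic eminence); each point is a library, NMDA in red above control in dark blue. Sst leads the 10 genes at 85.6 CPM per kilobase in control libraries, and Dlx6 is the lowest at 2.50.

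Markers of the interneuron subtypes were unequal in the control cultures. Of the parvalbumin list, the calcium-binding protein gene Pvalb itself stood at 0.764 CPM per kilobase, with 4, 23 and 24 counts in NMDA replicates 1, 2 and 3, and 13, 16 and 15 counts in control replicates 1, 2 and 3. The receptor gene Erbb4 and the fast potassium channel genes Kcnc1 and Kcnc2, which other neurons also use, were at 8.75, 5.81 and 3.85 CPM per kilobase. Genes of somatostatin subsets were present at low levels: Nos1 at 2.99, Cort at 2.83, Crhbp at 2.76 and Chodl at 0.408 CPM per kilobase, while Calb1, shared with other neurons, reached 19.7. Among CGE-type genes, Vip, Htr3a, Ndnf and Lamp5 were between 0.655 and 0.788 CPM per kilobase, and Reln was at 3.46. Id2 at 58.8, Cnr1 at 38.6, Calb2 at 32.8, Nr2f1 at 16.6 and Sp8 at 6.27 CPM per kilobase were higher. Adarb2, Pax6, Nr2f2, Prox1, Npas1 and Scgn were at 4.49, 3.59, 2.25, 1.41, 1.37 and 0.450. Nr2f1 also marks progenitors and excitatory neurons, and the cell source of any of these genes was not tested. Nkx2-1, which sets MGE fate and is switched off in migrating cortical interneurons, was at 0.198 CPM per kilobase, against 7.15 for Sox6 and 5.67 for Satb1, which act after Lhx6.

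Of 84 other genes of interneuron lineage, GABA handling, peptides, peptide receptors and the Dlx loci that were tested, edgeR without the block called 0, with 12 at an unadjusted p under 0.05; DESeq2 called 2 (Sp8 and Sstr2) and limma-voom 0. Over all genes these fits called 0.430%, 2.09% and 0.410%, in that order, and 13.7% had an unadjusted p under 0.05 in edgeR without the block. With the replicate block 10 were higher and 5 lower in NMDA libraries, where 5.65% of all genes tested were called higher and 8.35% lower. The blocked fit called 14 higher and 7 lower without the pair numbered 1 (18.4% of all genes called). It called 7 higher and 3 lower without that numbered 2 (6.90%), and 11 higher and 2 lower without that numbered 3 (9.93%). The lists share some genes, such as Vip and Tac1, which count once in the 84.

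In the edgeR fits on all libraries, with and without the block, the transcription factors Sp8 and Sp9 had larger fitted changes than any of the 10 members. Sp9 was above Npy by less than the SE of either. In the blocked fit without the pair numbered 2, Npy was the higher (log2 0.60 against 0.55). Sp8, a zinc-finger factor of CGE- and lateral eminence-derived interneurons, stood at 40.6, 56.8 and 53.7 CPM in NMDA replicates 1, 2 and 3, and 24.8, 34.7 and 26.2 CPM in control replicates 1, 2 and 3. All NMDA libraries were above all controls, and with the block Sp8 rose by 0.82 ± 0.09 on the log2 scale (edgeR adjusted p = 1.55e-06; 0.0863 without the block). Its relative Sp9 was at 19.7, 24.5 and 22.5 CPM in NMDA replicates 1, 2 and 3, and 12.1, 18.8 and 16.8 CPM in control replicates 1, 2 and 3. It too had groups that did not overlap, and rose by 0.49 ± 0.10 with the block (edgeR adjusted p = 0.00262; 0.262 without). With the block 2 of 12 tested MGE list genes were called higher (Sp9 and Maf) and 0 lower, against 5.65% and 8.35% of all genes. The median log2 fold change of that list was 0.01. Maf, a bZIP transcription factor of MGE-derived interneurons, averaged 24.7 ± 2.41 CPM in NMDA libraries and 20.4 ± 3.36 CPM in control libraries (SD, n = 3 each). Its groups overlapped, and it was not called without the pair numbered 1 or 2.

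Of the 16 CGE and lateral eminence genes, 3 were called higher and 3 lower with the block, against 5.65% and 8.35% of all genes. Their median log2 fold change was 0.05. The blocked counts were 2 higher and 3 lower without the pair numbered 1 (18.4% of all genes called). They were 1 higher and 2 lower without that numbered 2 (6.90%), and 2 higher and 1 lower without that numbered 3 (9.93%). Besides Sp8, the higher ones were the orphan nuclear receptors Nr2f1 and Nr2f2. Nr2f1 rose by 0.25 ± 0.07 on the log2 scale with the block (edgeR adjusted p = 0.0224, and 0.324 without the block). It was not called without the pair numbered 2. Ndnf, a secreted factor that marks neurogliaform cells of layer 1, fell to 3.49, 4.30 and 3.997 CPM in NMDA replicates 1, 2 and 3, against 5.74, 5.67 and 9.02 CPM in control replicates 1, 2 and 3. Its NMDA libraries were all below its controls (log2 -0.78 ± 0.17 with the block, edgeR adjusted p = 0.00410, and 0.189 without the block). The blocked call was lost without the pair numbered 3 (edgeR adjusted p = 0.0990). The other lower genes were Cnr1, the cannabinoid receptor, and Adarb2, neither of them called without the pair numbered 2 or 3. Nr2f2 was not called when any 1 of the 3 pairs was left out. Cnr1, Adarb2 and Nr2f2 are named after their values were seen. Npas1, a bHLH-PAS transcription factor, had all NMDA libraries below all controls, at 2.62 ± 0.383 CPM in NMDA libraries and 4.12 ± 1.16 CPM in control libraries (SD, n = 3 each), but did not pass with the block (log2 -0.62 ± 0.21, edgeR adjusted p = 0.0598). None of the 9 tested genes of the parvalbumin list or of the 10 tested genes of the somatostatin list was called in either edgeR fit; their median log2 fold changes with the block were 0.07 and 0.13. With the block, 2 of the parvalbumin list and 0 of the somatostatin list had an unadjusted p under 0.05, and without it 0 of either. Over all genes 28.7% did with the block and 13.7% without it. DESeq2 and limma-voom called 0 in both lists. The block with GC and length offsets called 1 in each list and 13.6% of all genes. Of the parvalbumin list the blocked fit called 1 without the pair numbered 1 and 1 without that numbered 3, and of the somatostatin list 1 without the pair numbered 3. Of 8 tested genes for GABA uptake, breakdown and response, 1 was called with the block. This was Slc12a5, whose chloride transporter KCC2 sets the response to GABA (log2 -0.23 ± 0.07, edgeR adjusted p = 0.0481). Slc12a5 was not called without the pair numbered 2 or 3.

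**Figure D4:**
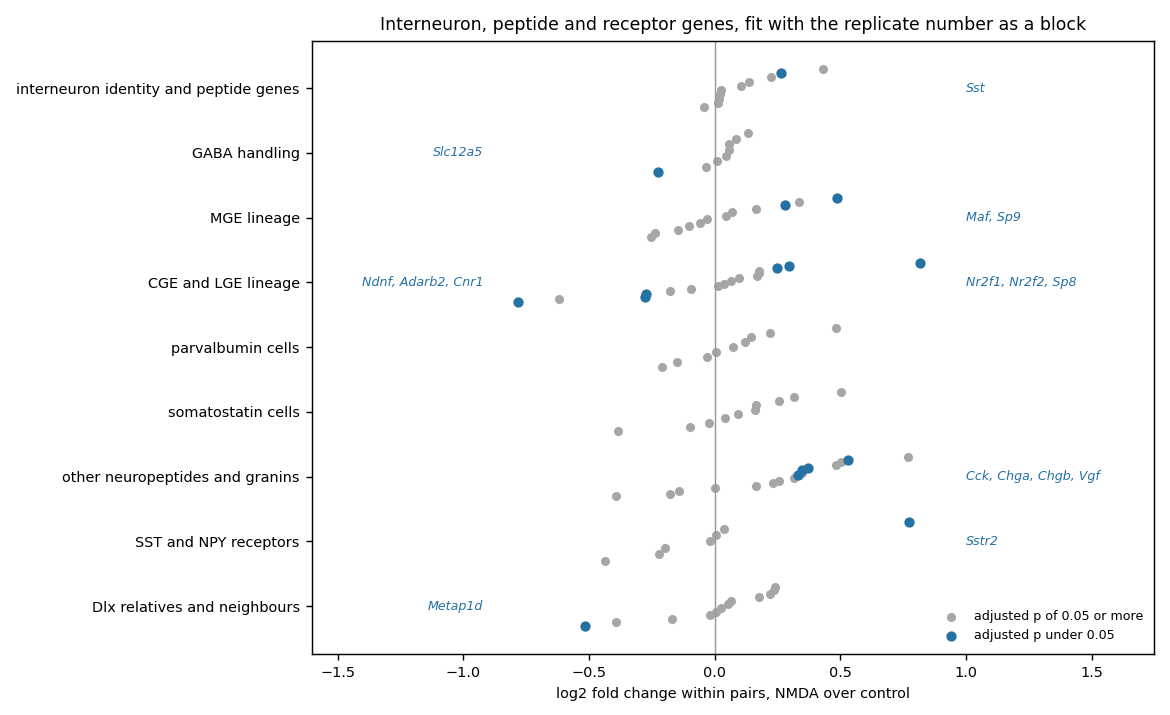
Log2 fold change, NMDA over control, of each tested gene of the interneuron, GABA, peptide, receptor and Dlx lists in the edgeR fit with the replicate block; each point is a gene, blue points have an adjusted p under 0.05 and are named at the side. Sp8 and Sstr2 lie farthest to the right of those called, at 0.82 and 0.77, and Ndnf farthest to the left at -0.78.

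Peptide and granin genes other than Sst and Npy had a higher median change than the lineage and subtype lists. Of 16 tested, 13 had a fitted change above 0 with the block, against 7213 of all 14642 genes tested. The median log2 fold change was 0.32. With the block 4 were called higher and 0 lower, against 5.65% and 8.35% of all genes. DESeq2 with the block also called 4 higher, where it called 6.58% of all genes. Without the block edgeR and DESeq2 called 0 of the 16, and limma-voom called 0. Without the pair numbered 1 the blocked fit called 5 higher and 1 lower, where it called 18.4% of all genes. Chga, a granin that helps to form dense-core vesicles, was at 78.6, 73.4 and 82.3 CPM in NMDA replicates 1, 2 and 3, and 58.8, 57.3 and 67.9 CPM in control replicates 1, 2 and 3. Cck, the cholecystokinin precursor made by CGE interneurons and also by excitatory neurons, was at 67.7, 57.1 and 66.8 CPM in NMDA replicates 1, 2 and 3, and 53.6, 50.8 and 47.8 CPM in control replicates 1, 2 and 3. Both had NMDA libraries wholly above the controls. With the block Chga rose by 0.35 ± 0.07 and Cck by 0.33 ± 0.08 on the log2 scale (edgeR adjusted p = 0.00238 and 0.00661), and the granins Chgb (0.37 ± 0.09, edgeR adjusted p = 0.00683) and Vgf (named after its values were seen) made up the rest; Cck was not called without the pair numbered 3. The fitted log2 change of Sst, 0.27, is below those of these 4 genes.

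Of 7 tested receptors for somatostatin and neuropeptide Y, 1 was called with the block, against 14.0% of all genes. Without the pair numbered 1 the blocked fit called 1 higher and 1 lower, where it called 18.4% of all genes. Sstr2, a somatostatin receptor that inhibits the cells that carry it, stood at 13.0, 20.7 and 19.4 CPM in NMDA replicates 1, 2 and 3, and 9.26, 10.3 and 11.2 CPM in control replicates 1, 2 and 3. Every NMDA library was above every control, and Sstr2 rose by 0.77 ± 0.12 on the log2 scale with the block (edgeR adjusted p = 0.000146; 0.125 without it; DESeq2 without the block, adjusted p = 0.00802). The receptor list as a whole had a median log2 fold change of -0.02, with Sstr4 at -0.44 ± 0.17 and Npy1r at -0.22 ± 0.10. Neither passed in the edgeR fits on all libraries, with or without the block.

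Around the Dlx loci, 1 of 12 tested relatives and neighbours was called with the block, against 14.0% of all genes. Without the pair numbered 1 the blocked fit called 3 higher and 1 lower, and 18.4% of all genes. Metap1d, a mitochondrial methionine aminopeptidase gene beside Dlx1 and Dlx2, fell to 22.5, 12.01 and 12.7 CPM in NMDA replicates 1, 2 and 3, against 33.7, 17.3 and 17.1 CPM in control replicates 1, 2 and 3. Replicate 1 was the highest in both groups and the groups overlapped, but each NMDA library was below the control of its number (log2 -0.52 ± 0.10 with the block, edgeR adjusted p = 0.00136). DESeq2 with the block also called Metap1d (adjusted p = 0.0125). Without the block DESeq2 did not (adjusted p = 0.452), nor did limma-voom (adjusted p = 0.461). Dlx6os1 and Dlx1as had log2 fold changes of -0.02 ± 0.07 and 0.05 ± 0.16 with the block and were not called; both are named after their values were seen.

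Other cell types moved between libraries as well. Over 10 astrocyte markers the summed level was 2368 to 3606 CPM in NMDA libraries and 2196 to 2864 CPM in control libraries. It was higher in NMDA in all 3 pairs (log2 0.11, 0.38 and 0.33). With the block 7 of 10 were called higher, against 5.65% of all genes. Without the pair numbered 2 the blocked fit called 0 of them and 6.90% of all genes. DESeq2 with the block called 5, whereas edgeR and DESeq2 without it and limma-voom called 0. Over 12 excitatory markers the summed level was 1095 to 1303 CPM in NMDA libraries and 1264 to 1407 CPM in control libraries, lower in all 3 pairs (log2 -0.07, -0.21 and -0.25). Yet 7 of these 12 genes had a fitted change above 0 with the block, against 7213 of all 14642 genes tested. Their median log2 fold change with the block was 0.04. With the block Emx1 and Neurod2 rose and Camk2a, the most abundant of them, fell; Neurod2 was not called without the pair numbered 3 or with GC and length offsets, and DESeq2 with the block called Camk2a but neither of the other 2. Oligodendrocyte markers summed to 696 to 1067 CPM in NMDA libraries and 575 to 1097 CPM in control libraries, with replicate 1 the highest in both groups. Striatal projection neuron genes, which share Gad1, Gad2 and the Dlx genes with cortical interneurons, summed to 410 to 434 CPM in NMDA libraries and 360 to 474 CPM in control libraries, with 1 of 12 tested called lower with the block (Pde10a, not called without the pair numbered 2 or 3). Progenitor markers summed to 609 to 890 CPM in NMDA libraries and 577 to 772 CPM in control libraries, and vascular markers to 156 to 284 CPM in NMDA libraries and 125 to 168 CPM in control libraries. Both sums were higher in NMDA in all 3 pairs (log2 0.08, 0.21 and 0.25 for progenitor and 0.32, 0.75 and 0.26 for vascular markers). Each list had 2 of 10 tested genes called higher with the block and 0 lower, against 5.65% and 8.35% of all genes. Without the pair numbered 2 these list calls were 0 for progenitor and 2 for vascular markers, where 6.90% of all genes were called. The part of these differences in the values of the interneuron genes was not tested.

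**Figure D5:**
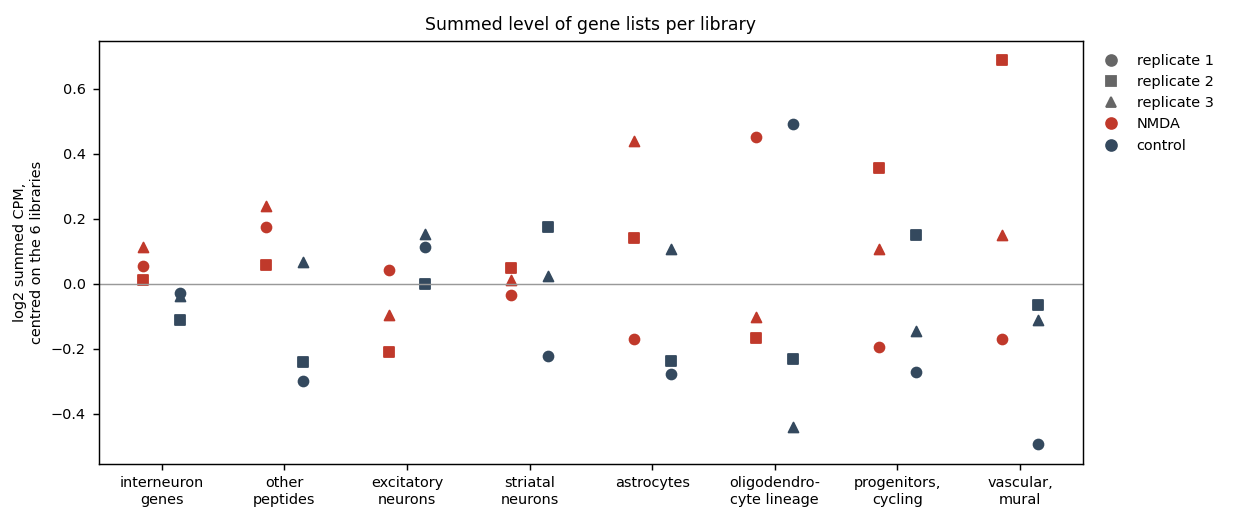
Summed level of 8 gene lists in each library, as log2 summed CPM centred on the mean of the 6 libraries, NMDA in red left of control in dark blue, with marker shapes for replicates 1, 2 and 3. The 10 interneuron genes sum to 613 to 659 CPM in NMDA libraries and 564 to 597 CPM in control libraries, and astrocyte markers to 2368 to 3606 CPM in NMDA libraries and 2196 to 2864 CPM in control libraries.

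The mean z-score of the 10 genes over the 6 libraries was followed most closely by Eif2b1 (Pearson r = 0.992), Snx12 (0.979), Trib2 (0.970), Ppp4r1 (0.965) and Trim8 (0.965). These values describe 6 libraries that share their conditions and pairs, and they were picked as the highest of all tested genes.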

How the data were processed

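The deposited values are unnormalized counts of reads for each gene, which the authors made from single-end, stranded poly(A) libraries, per the labels' protocols. Trimmomatic, TopHat, HTSeq, mm10 and GRCm38.p6 are named in the submitters' processing notes; versions, annotation release and strand setting were not given in the sources used here. Totals were 15417234 to 19183999 counts per library.

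Counts were tested with edgeR 4.0.16 in R 4.3.3: a filter on low counts (minimum count 10, minimum total 15), TMM scaling, quasi-likelihood fits with group as the term on all 14642 genes, and Benjamini-Hochberg adjustment at 0.05. Levels are CPM on TMM-scaled library sizes; levels per kilobase divide by the union of GENCODE M21 exons on GRCm38. Same-numbered libraries correlated in their deviations from the group means (r = 0.62, 0.49 and 0.56 over 12638 genes), so the replicate number was taken to pair them and a blocked fit is given where it changes a call. The labels leave the meaning of the numbers unstated, so this pairing rests on the correlations. Residual degrees of freedom were 4 without and 2 with the block. Within-pair differences used a pseudocount of 0.5 CPM.

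Alternatives were DESeq2 1.42.0, limma-voom (limma 3.58.1), other scalings and filters, GC and length offsets (mgcv 1.9.3), the block, and libraries or pairs left out. The code was tested on simulated counts. The members and lists were chosen with earlier results of these data known. All members were named, and from each list the 4 genes with the smallest p without the block, with Fos, Npas4 and Arc as a check of stimulation and the 5 genes most like the members by Pearson r; any list gene could be given its control level, and other genes are said to be chosen later. Promoter sequences are from RefSeq. Protein sequences were not used here, and 1 gene of a list is not reported here.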

Additional observations from a re-analysis of the deposited data

How the results depend on the processing

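Of the 10 members, 0 were called by edgeR without the block, DESeq2, limma-voom, every other scaling or filter and every fit without 1 library. The replicate block called 1, the block with GC and length offsets 2, the block without the pair numbered 1 called 2 and without the pair numbered 2 called 1; without the pair numbered 3 it called 0. All genes called were 63 without the block, 2051 with it, 1993 with the block and offsets, 306 with DESeq2, 963 with DESeq2 and the block, 260 without the low-count filter, and 2707, 1018 and 1463 with the block without pairs 1, 2 and 3; without 1 library they ranged from 20 to 146. Of the 84 other tested genes of the interneuron, GABA, peptide, receptor and Dlx lists, 0 were called without and 15 with the block. On the log2 scale, signs turned as follows. Leaving out both libraries numbered 2 with the block gave Gad2 -0.039, Dlx1 0.056 and Lhx6 -0.026, leaving out those numbered 3 gave Dlx2 -0.13 and Lhx6 -0.031, and leaving out those numbered 1 gave Dlx5 -0.11. The block with offsets gave Dlx2 -0.033, Dlx5 -0.048 and Lhx6 -0.00048, and library totals without TMM gave Dlx5 -0.0022. Without 1 library, values ranged from -0.060 to 0.14 for Gad2, -0.11 to 0.028 for Dlx1, -0.11 to 0.21 for Dlx2, -0.20 to 0.14 for Dlx5 and -0.040 to 0.13 for Lhx6. None of these was called, and the cause was not tested. Gad1, Slc32a1, Dlx6, Sst and Npy were above 0 in all 20 settings. With the longest transcript as length, control levels were 60.0 for Gad1, 29.15 for Dlx1, 6.458 for Dlx5 and 6.009 CPM per kilobase for Lhx6, which follows from the shorter length. The block changed the call of no member but Sst. With 3 libraries a group, the standard errors without the block were 0.09 to 0.21, and changes larger than these also did not pass. Npy at 0.44 ± 0.21, Sst at 0.26 ± 0.11 and Gad1 at 0.22 ± 0.09 had edgeR adjusted p-values of 0.395, 0.336 and 0.327. Changes of this size are therefore not resolved by the fit without the block. The planned comparison of protein sequences was not run.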
